A study of Mus musculus with 6 samples.

Results

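The genes for the proteins of the mitochondrial ribosome were followed in cold-stimulated inguinal fat of mice with and without chemerin. They were chosen by symbol: every row whose name begins with Mrpl or Mrps and a number, kept at a mean of at least 1 FPKM over the 6 libraries. The rule took 76 of the 17342 named genes, and all 76 passed the minimum, 47 of them Mrpl and 29 Mrps genes. The lowest, Mrpl19, had a mean of 4.20 FPKM, so no member lay near the minimum and none fell below it. FPKM is a fragment count divided by transcript length and by library size, so it allows levels of different genes to be compared per length. RNA came from inguinal white adipose tissue of C57BL/6 mice aged 8 weeks after cold stimulation. Wild-type (WT) mice gave libraries 1 to 3, and Rarres2-/- mice, which lack a working gene for the secreted protein chemerin, gave libraries 4 to 6. All libraries were from cold-stimulated fat. Nothing in the labels ties each library to a mouse of its own, so the p-values measure the spread between libraries, which may be technical.

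Mitochondria carry their own ribosome, which translates the few messenger RNAs made from mitochondrial DNA, all of them coding for subunits of the respiratory chain and ATP synthase. Its RNAs are made inside the organelle, whereas its proteins are encoded in the nucleus, made in the cytosol and imported. Some of them have homologues in bacterial ribosomes, others are found only in mitochondria. In fat that forms beige adipocytes in the cold, thermogenic cells hold many mitochondria, and their respiratory chain depends on this ribosome.

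The libraries differed from each other beyond genotype. Rarres2 itself was between 436 and 610 FPKM in the WT libraries and between 0.260 and 6.35 FPKM in the others. Adipocyte markers were abundant in every library, with Adipoq between 2120 and 2810 FPKM, and 4 of 4 epithelial markers were too low to be tested. WT replicate 1 had the lowest depth relative to the others, macrophage markers 1.29 and progenitor markers 1.08 below their 6-library mean, and endothelial markers 1.92 and muscle markers 1.79 above it (sizes of median deviations on the log2 scale). In Rarres2-/- replicate 4 endothelial markers stood at 1.26, white adipocyte markers at -0.34 and brown and beige adipocyte markers, the thermogenic list, also at -0.34. In replicate 6 white adipocyte markers stood at 0.27 and brown and beige markers at 0.31. By their medians, both adipocyte lists were thus low and high in the same Rarres2-/- libraries as the ribosomal genes described here. The genes of the thermogenic list were split in replicate 4, however. Cox8b, a cytochrome oxidase subunit of thermogenic fat, was at 454 FPKM in replicate 4 and 1420 FPKM in replicate 6. Like Cox8b, Cox7a1 and Elovl3 were lowest of all in replicate 4. Dio2 was instead highest of all in that library, and Cidea was higher only in WT replicate 1. Ucp1, which encodes the uncoupling protein of thermogenic fat, was not low in replicate 4, at 43.1, 46.6 and 56.1 FPKM in WT against 61.5, 62.8 and 74.6 in Rarres2-/-. The part of these markers in the results was not tested. Within the adipocyte list, Adipoq, Fabp4, Retn and Pparg were lowest of all in Rarres2-/- replicate 4 (2120, 22500, 1630 and 84.4 FPKM), whereas Plin1, Cidec and Lipe were not (844, 1790 and 934 FPKM). In tissue RNA, fewer cells of a type and less RNA per cell cannot be told apart.

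The 76 genes were expressed at very unequal levels although their products are built into a single particle. Mean FPKM ran from 4.20 for Mrpl19 to 279 for Mrps21, a 66.4-fold range, with a median of 43.2 against 9.35 for all 11086 tested genes. Of the 76, 13 had means of at least 100 FPKM, 52 lay from 20 to 100, and 2 were below 10. Mrps21, homologue of bacterial S21 in the small subunit, was the highest in every library, at 324, 287 and 260 FPKM in WT against 153, 290 and 359 in Rarres2-/-. Behind it came Mrpl30 (mean 189 FPKM), Mrpl20 (186), Mrpl33 (183) and Mrpl12 (172), all homologues of bacterial large-subunit proteins. Their means differed by less than the spread between libraries, as Mrpl12 alone ran from 72.9 to 251 FPKM. Mrpl52, specific to mitochondria, followed at 157 FPKM, then Mrps18c, a homologue of bacterial S18, at 135 and Mrpl42, again specific to mitochondria, at 123. At the low end stood Mrpl19 (4.20 FPKM), Mrps25 (8.53), Mrpl17 (10.6), Mrpl35 (11.1) and Mrpl1 (11.9), the last a protein of the mobile stalk at the exit site. The order of the genes was nearly the same everywhere: Spearman's rho between each library and the mean over libraries was 0.983 to 0.996 across the 76 genes, which are not independent replicates.

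**Figure D1:**
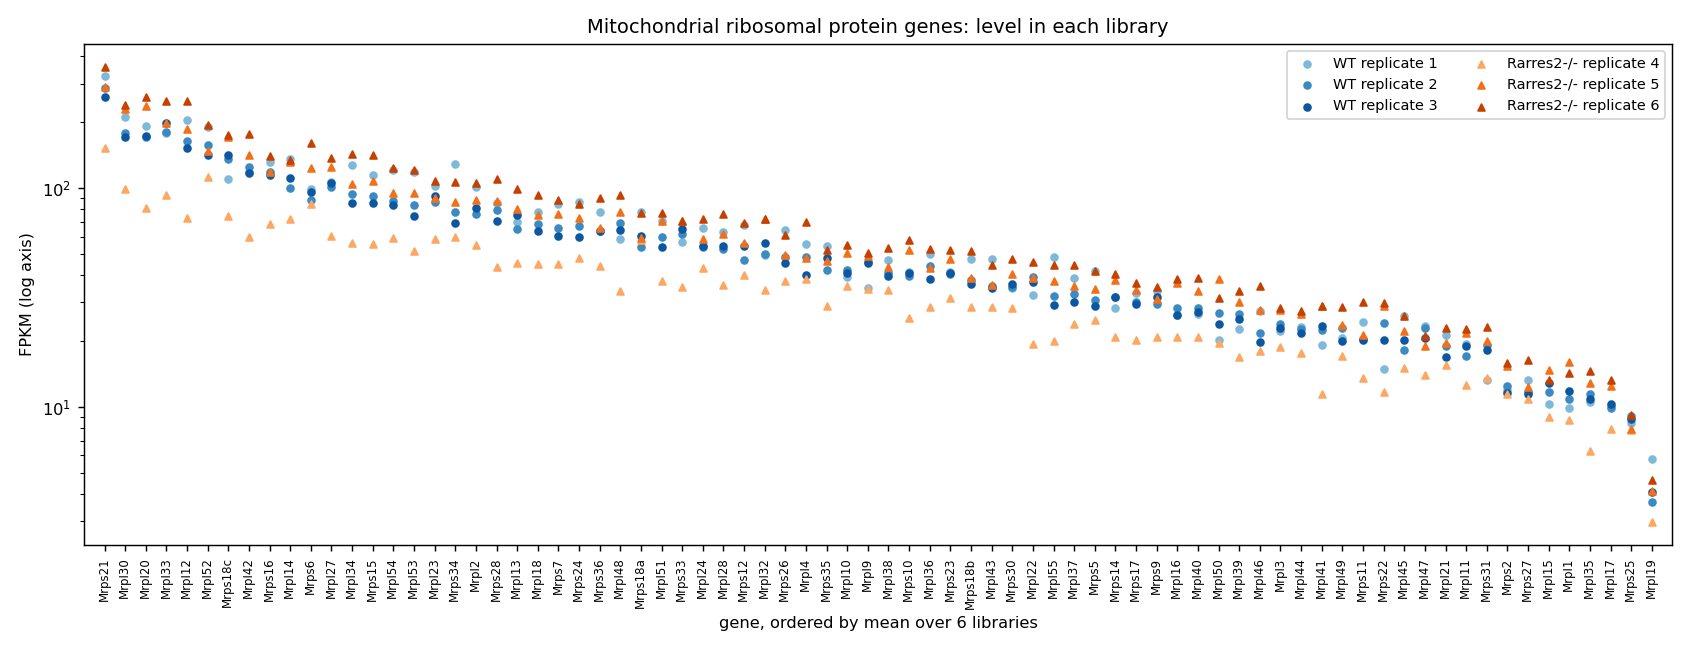
FPKM of the 76 genes on a log axis, ordered by mean, with 1 point per library (circles WT, triangles Rarres2-/-). The order of genes is shared by all libraries, from Mrps21 at a mean of 279 FPKM to Mrpl19 at 4.20 FPKM, and the points of Rarres2-/- replicate 4 form the lower edge for 74 of the 76.

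Levels of the small and the large subunit kept step. Summed FPKM of the 26 small-subunit genes was 1760, 1550 and 1500 in WT and 1020, 1740 and 2060 in Rarres2-/- replicates 4, 5 and 6. For the 49 large-subunit genes the sums were 3210, 2820 and 2780 in WT and 1810, 3270 and 3860 in Rarres2-/-. The ratio of the small to the large sum stayed between 0.533 and 0.561 in all libraries, while the sum over all members ran from 2870 to 6010 FPKM. Here Mrps18a and Mrps30 are counted with the large subunit, where their products sit despite their names. Mrps36 is counted with neither, because its product is now known as a part of the 2-oxoglutarate dehydrogenase complex.

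A single pattern across the libraries ran through nearly all members. Of the 76 genes, 74 were lowest of all in Rarres2-/- replicate 4, and 60 were highest in Rarres2-/- replicate 6. Among all tested genes 28.5% were lowest in the former and 19.4% highest in the latter. Deviation of a gene from its own 6-library mean, on the log2(FPKM + 1) scale, had medians of 0.16, -0.03 and -0.05 in WT replicates 1, 2 and 3. In Rarres2-/- replicates 4, 5 and 6 the medians were -0.53, 0.17 and 0.37. For all tested genes these medians lay between -0.04 and 0.02. The widest spread within a genotype was therefore inside Rarres2-/-, between replicates 4 and 6. Across tested genes, mean level went with the deviation at Spearman's rho -0.37 in replicate 4 and 0.44 in replicate 6. For transcript length these rhos were 0.45 and -0.38. By their medians, members are more abundant and shorter than tested genes, and the shares above were not matched for level or length.

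**Figure D2:**
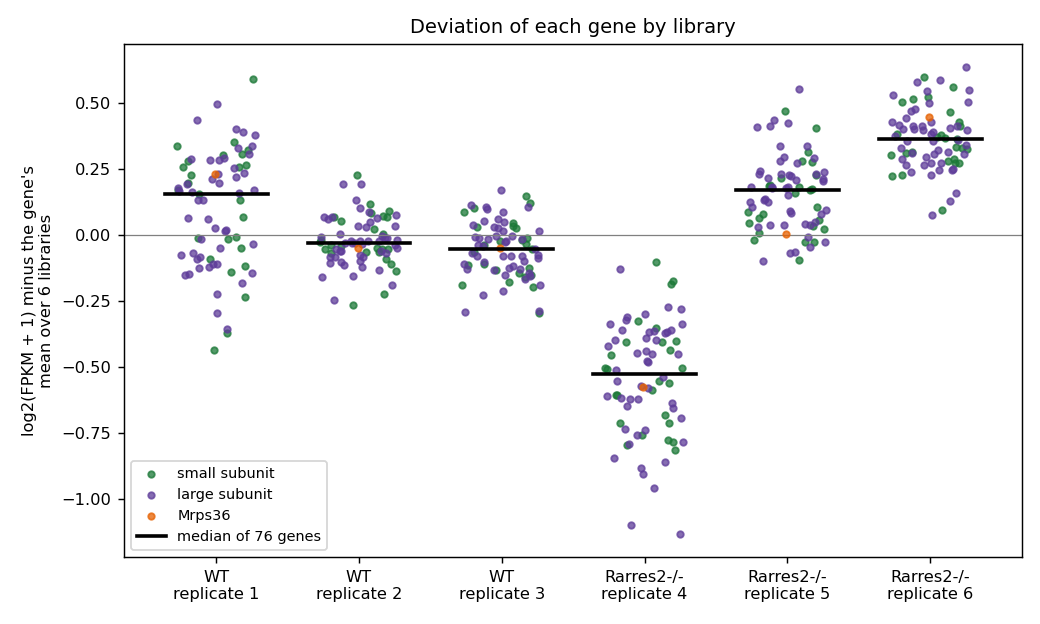
Deviation of log2(FPKM + 1) from the mean of the gene over 6 libraries, 1 point per gene and library, coloured by ribosomal subunit, with black bars for the median of the 76 genes. The bar of Rarres2-/- replicate 4 lies at -0.53 and that of replicate 6 at 0.37, and both subunits follow the same course.

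How far a gene followed the pattern differed between members. Mrpl12, homologue of the bacterial stalk protein L12, was at 204, 165 and 153 FPKM in WT against 72.9, 186 and 251 in Rarres2-/-. Its value in replicate 6 was 3.44 times that in replicate 4, the largest ratio of the 76. Mrpl20, whose bacterial homologue binds ribosomal RNA early in assembly, was close to it, at 192, 171 and 173 FPKM in WT against 81.0, 237 and 262 in Rarres2-/- (ratio 3.23). Mrps25, a small-subunit protein specific to mitochondria, was nearly level, with 8.41, 9.07 and 8.75 FPKM in WT against 7.87, 7.92 and 9.17 in Rarres2-/- (ratio 1.17). Over all members this ratio had a median of 1.85. As a description of likeness, Pearson's r of each gene with the mean deviation of the other 75 was at least 0.9 for 54 genes over the 6 libraries. It was highest for Mrps28, Mrpl28, Mrpl18, Mrps17 and Mrps15, all at 0.99, the last 4 of them homologues of the bacterial proteins of the same number. It was lowest for Mrps25 (0.54), Mrps18a (0.55), Mrpl50 (0.65), Mrpl9 (0.65) and Mrps31 (0.68). Without Rarres2-/- replicates 4 and 6, the libraries farthest out, the median r was 0.605 and 71 of 76 stayed positive, so much of the likeness rests on those libraries. The exceptions to the low position of Rarres2-/- replicate 4 were Mrps18a, lowest in WT replicate 2, and Mrps31, lowest in WT replicate 1.

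No member passed the test between genotypes in these 6 libraries. The deleted gene itself, with a log2 difference of -7.51 (SE 0.592), did not pass it either (limma adjusted p = 0.0597), so a count of 0 says little about smaller changes. With limma, 0 of the 76 passed an adjusted p of 0.05, their lowest adjusted p was 0.999, and 0 had an unadjusted p under 0.05. Over all 11086 tested genes, 0.00% passed the adjusted and 3.93% the unadjusted threshold. The median log2 difference (Rarres2-/- minus WT) was -0.04, with 30 members higher and 46 lower and a range of -0.32 to 0.32. For all tested genes the median was -0.01, with 48.6% higher. In 0 of the 76 genes did the genotypes separate without overlap, where 10.3% of tested genes did. For 74 of the 76 the difference was smaller than the residual standard deviation within genotypes, whose median was 0.348 for members and 0.251 for all tested genes (log2 scale).

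On the side of higher levels in Rarres2-/-, the smallest p-values belonged to Mrps2, Mrps6, Mrpl50, Mrpl10 and Mrpl1. Mrps2, homologue of bacterial S2, was at 11.9, 12.5 and 11.6 FPKM in WT against 11.4, 15.4 and 15.9 in Rarres2-/-, a log2 difference of 0.21 (SE 0.161, limma adjusted p = 0.999). Mrps6, homologue of bacterial S6, was at 99.4, 87.9 and 96.5 FPKM in WT against 84.2, 123 and 161 in Rarres2-/-, a difference of 0.32 (SE 0.252). Both genes had replicates 5 and 6 above every WT library and replicate 4 below, so the genotypes overlapped. Mrpl50, specific to the mitochondrial large subunit, was at 20.1, 26.9 and 23.9 FPKM in WT against 19.5, 38.6 and 31.6 in Rarres2-/- (difference 0.28, SE 0.263). Mrpl10, homologue of the bacterial protein that anchors the L12 stalk, had means of 40.7 ± 1.54 and 47.0 ± 10.3 FPKM, and Mrpl1 had 10.8 ± 0.981 and 13 ± 3.83 FPKM (SD, n = 3 each). Mrps6 (chromosome 16, 92058270 to 92112227, GRCm38) shares annotated exon sequence with Slc5a3 on the same strand, a transporter gene at 3.70, 4.99 and 5.96 FPKM in WT against 7.13, 8.55 and 8.20 in Rarres2-/-. Reads of that stretch may have been assigned to either, and how shared reads were handled is not stated in the labels or headers.

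Among members lower in Rarres2-/-, Mrpl47, Mrps35, Mrpl19, Mrps16 and Mrps9 had the smallest p. Mrpl47, homologue of bacterial L29, was at 23.5, 22.9 and 20.6 FPKM in WT against 14, 18.9 and 21 in Rarres2-/-, a log2 difference of -0.32 (SE 0.180, limma adjusted p = 0.999). Only Rarres2-/- replicate 6 reached the WT range. Its exons overlap those of Ndufb5 and Actl6a on the opposite strand (chromosome 3, 32725397 to 32737605). Mrps35, specific to the mitochondrial small subunit, had means of 48.1 ± 5.91 and 42.6 ± 12.2 FPKM, and Mrps16, homologue of bacterial S16, had 121 ± 8.94 and 109 ± 37.1 FPKM (SD, n = 3 each). The differences of Mrpl19 and Mrps9 were -0.17 (SE 0.206) and -0.16 (SE 0.213).

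**Figure D3:**
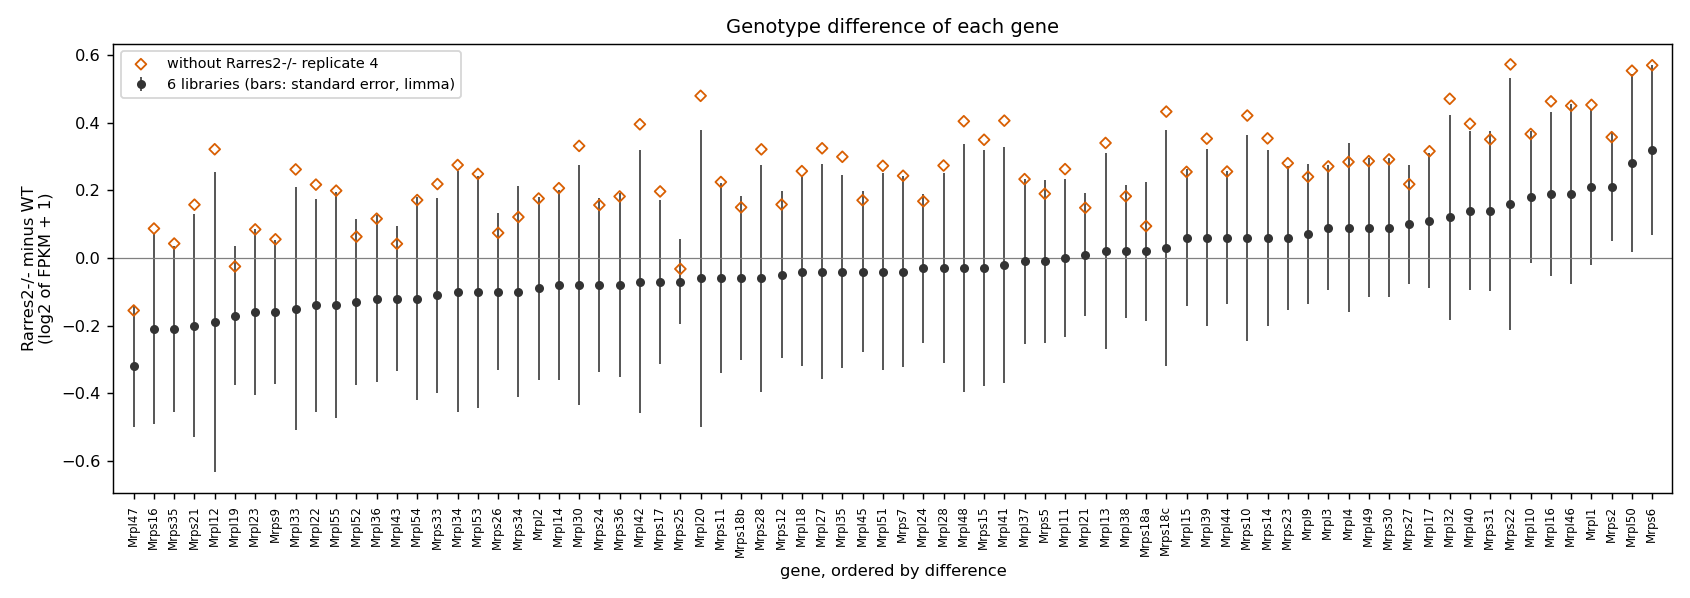
Log2 difference (Rarres2-/- minus WT) of each gene, ordered by size, as filled points with standard errors from limma over 6 libraries, and as open diamonds without Rarres2-/- replicate 4. The filled points scatter about 0 between -0.32 and 0.32, whereas 73 of the 76 diamonds lie above 0.

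The sign of the group's median depended on single libraries. Without WT replicate 1 it was 0.04, with 49 of the 76 higher in Rarres2-/-. Without Rarres2-/- replicate 4 the median log2 difference was 0.26 over the members and 0.02 over all tested genes, with 73 of the 76 higher. Still, 0 members and 0 of all tested genes had an adjusted p under 0.05 by limma, the smallest among members being 0.355. Replicates 5 and 6 both lay above every WT library in 36 of the 76 genes, against 21.5% of tested genes. Without Rarres2-/- replicate 6 the median was -0.23 with 70 members lower. Without WT replicate 1 as well as Rarres2-/- replicate 4, the median was 0.31, 74 members were higher, and 66 had both Rarres2-/- libraries above both WT libraries (31.7% of tested genes). In that fit 0 members passed, with Mrpl20 closest at a difference of 0.53 (SE 0.106, limma adjusted p = 0.0730), while 0.613% of tested genes did. With limma's array weights, 5 members passed, all higher: Mrpl50 (0.54, adjusted p = 0.0353), Mrpl1 (0.45, 0.0359), Mrps2 (0.32, 0.0387), Mrpl16 (0.40, 0.0395) and Mrps6 (0.44, 0.0451). In the same fit 13.7% of all tested genes were called, 6.95% as higher, so the members' count is near the background for higher calls, and 0 members were called lower. The weights were 0.192, 2.81 and 2.27 in WT and 0.179, 6.19 and 0.736 in Rarres2-/-, so these calls rest mainly on WT replicates 2 and 3 and Rarres2-/- replicate 5.

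Proteins of the catalytic and decoding regions followed the other members. Mrpl27, whose bacterial homologue reaches the peptidyl transferase centre, was at 107, 101 and 105 FPKM in WT against 60.3, 125 and 137 in Rarres2-/- (log2 difference -0.04, SE 0.318). Mrpl16, which lies near the same centre, was at 26.4, 28.2 and 26.2 FPKM in WT against 20.9, 36.7 and 38.3 in Rarres2-/- (0.19, SE 0.243). In both, replicates 5 and 6 lay above the WT libraries and replicate 4 below. The ribosomal RNA-binding core proteins Mrpl2, Mrpl3 and Mrpl4 had differences of -0.09, 0.09 and 0.09. Mrps12, the homologue of S12 in the decoding centre, was at 68.1, 46.8 and 54.4 FPKM in WT against 40.2, 56.1 and 69.3 in Rarres2-/- (-0.05, SE 0.247). Mrps7, in the head of the small subunit, had a difference of -0.04 (SE 0.283).

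Bacterial homologues and mitochondria-specific proteins both followed this pattern across libraries. The 16 small-subunit genes with a bacterial homologue had a median deviation of -0.58 in Rarres2-/- replicate 4 and 0.37 in replicate 6, and the 10 mitochondria-specific ones -0.43 and 0.32. In the large subunit the 30 with a homologue had -0.58 and 0.37, and the 19 specific ones -0.45 and 0.38. Median genotype differences of these groups were -0.04, -0.06, -0.04 and -0.01. All 4 groups had 0 genes past the threshold by limma, and the differences between the groups were not tested.

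The S18 family, in which mammals keep 3 paralogues at different places in the ribosome, did not share a single course. Mrps18c, in the position of bacterial S18, was at 110, 136 and 141 FPKM in WT against 74.8, 172 and 175 in Rarres2-/-. Mrps18b, elsewhere in the small subunit, was at 47.4, 38.0 and 36.4 FPKM in WT against 28.5, 38.9 and 51.7 in Rarres2-/-. Mrps18a, in the large subunit, was at 78.1, 53.6 and 60.3 FPKM in WT against 58.2, 59.4 and 76.8 in Rarres2-/-. WT replicate 1 was thus lowest of its genotype for Mrps18c and highest for the other paralogues, and Rarres2-/- replicate 4 lay within the WT range for Mrps18a alone. GC content was 44.5% for Mrps18c, 52.6% for Mrps18b and 56.0% for Mrps18a. WT replicate 1 was highest of its genotype in 34 of the 38 members above the median GC content, against 15 of the other 38. The part of GC content in the courses of the paralogues was not tested. The log2 differences of Mrps18c, Mrps18b and Mrps18a were 0.03 (SE 0.349), -0.06 (SE 0.242) and 0.02 (SE 0.205). Mrps30, the other large-subunit protein named as small, had a difference of 0.09 (SE 0.206). Mrps36 was at 77.5, 63.6 and 63.6 FPKM in WT against 43.9, 66.0 and 90.3 in Rarres2-/-, again lowest in replicate 4 and highest in replicate 6 (-0.08, SE 0.273).

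Proteins of the same ribosome whose symbols fall outside the rule were low in the same library. These 7 genes, Aurkaip1, Chchd1, Dap3, Gadd45gip1, Ict1, Mrp63 and Ptcd3, were all lowest in Rarres2-/- replicate 4, with a median deviation of -0.70 there and 0.34 in replicate 6, where 4 of the 7 were highest. Aurkaip1, for example, was at 111, 93.0 and 90.9 FPKM in WT against 53.7, 108 and 137 in Rarres2-/-. Their median genotype difference was -0.05, with 0 past the threshold.

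Genes that build or serve the ribosome had smaller median deviations, a contrast that was not tested. They were also less abundant and longer than the members, with median means of 5.66 to 10.2 FPKM. At such levels the pseudocount of 1 shrinks deviations, but it does not change which library is lowest. Among all tested genes 28.5% were lowest in Rarres2-/- replicate 4. The 22 tested assembly factors (of 24 listed) had medians of -0.12 in Rarres2-/- replicate 4 and 0.14 in replicate 6, and 7 of them were lowest in replicate 4. Trub2, a pseudouridine synthase of mitochondrial RNA, was at 6.65, 5.37 and 6.15 FPKM in WT against 5.83, 8.78 and 10.7 in Rarres2-/- (log2 difference 0.39, SE 0.217). Of 17 mitochondrial aminoacyl-tRNA synthetases, which charge the organelle's tRNAs, 5 were lowest in replicate 4 (medians -0.15 and 0.23). Among 13 translation factors 11 were lowest there (medians -0.24 and 0.23), with Taco1, a translational activator of cytochrome oxidase subunit I, at 6.73, 10.1 and 8.66 FPKM in WT against 9.09, 13.6 and 12.3 in Rarres2-/- (0.41, SE 0.205). The 13 tested genes of mitochondrial DNA and transcript handling (of 16 listed) had medians of -0.15 and 0.14. In that list Elac2, which trims tRNA precursors, was between 7.59 and 8.00 FPKM in WT libraries, below all values of Rarres2-/- (9.13 to 9.63) (0.25, SE 0.116, limma adjusted p = 0.999). Elac2 and Peo1 were the 2 genes of that list whose genotypes did not overlap, and 10.3% of all tested genes did not overlap. Median genotype differences of these 4 lists were 0.04, 0.04, 0.05 and 0.09, each with 0 genes past the threshold.

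Other abundant mitochondrial and ribosomal genes shared the low position of Rarres2-/- replicate 4. The 36 complex I subunits had a median deviation of -0.85 there and 0.48 in replicate 6, and 35 of them were lowest in replicate 4. General mitochondrial proteins (16) had -0.45 and 0.35. Cytosolic ribosomal proteins (79) had -0.53 and 0.14, with 75 lowest in replicate 4. Unlike the mitochondrial ribosome, the cytosolic list stood at 0.16 and 0.15 in WT replicates 2 and 3, and 75 of its 79 genes had a negative genotype difference (median -0.24) against 46 of the 76 members. That contrast was not tested. By limma 0 of these genes passed the threshold.

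**Figure D4:**
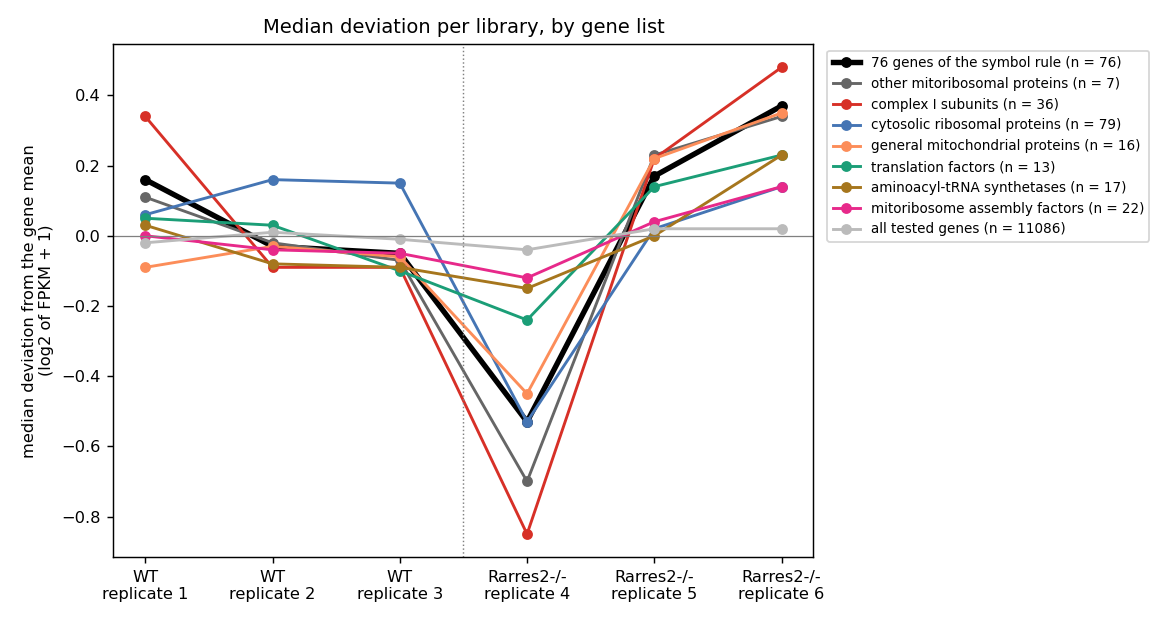
Median deviation of log2(FPKM + 1) from the gene mean in each library, by gene list, with lines joining the values of a list and a dotted line between genotypes. The mitochondrial ribosome (black) lies at -0.53 in Rarres2-/- replicate 4, complex I to -0.85, while assembly factors stay at -0.12 and all tested genes at -0.04.

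Regulators of mitochondrial gene expression differed from each other in their course. Nrf1 and Gabpa encode transcription factors known to act on promoters of mitochondrial genes. Nrf1 was at 3.88, 4.19 and 3.78 FPKM in WT against 4.87, 3.81 and 3.0 in Rarres2-/-, and Gabpa at 6.48, 6.87 and 7.32 FPKM in WT against 9.05, 6.96 and 5.71 in Rarres2-/-. Both were highest in replicate 4 and lowest in replicate 6, the reverse of the members. The regulators listed are also longer and less abundant than the members, with medians of 4570 bases and 4.32 FPKM. Across tested genes, longer genes tended to be higher in replicate 4 and lower in replicate 6 (Spearman's rho 0.45 and -0.38). The part of length and level in the course of the regulators was not tested. The coactivator gene Ppargc1a was at 4.61, 2.47 and 1.99 FPKM in WT against 5.21, 3.13 and 3.37 in Rarres2-/-. The nuclear receptor gene Esrra had the members' order in Rarres2-/-, at 26.1, 47.9 and 49.9 FPKM, with 51.9, 39.2 and 32.4 FPKM in WT. Yy1, another transcription factor gene, was at 31.5, 30.4 and 31.9 FPKM in WT against 28.2, 29.1 and 29.8 in Rarres2-/- (-0.10, SE 0.126, limma adjusted p = 0.999). It was the one regulator of the 10 whose genotypes did not overlap, and 10.3% of all tested genes did not overlap. Of the 10 regulators listed, 5 had positive and 5 negative differences by limma, 0 past the threshold.

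Transcript length and base composition went with the differences between libraries. Members are short, with a median of 1302 bases against 3038 for tested genes (longest coding transcript in GENCODE M21). Shorter members were more abundant (Spearman's rho -0.62 across 76 genes, -0.32 across tested genes), on a measure that is itself divided by length. In Rarres2-/- replicate 4 the 38 shorter members had a median deviation of -0.62 and the 38 longer ones -0.40. With the length trend of each library removed, the members' median in replicate 4 was -0.32 and in replicate 6 it was 0.27. Under quantile normalization the medians were -0.40 in replicate 4, 0.06 in replicate 5 and 0.23 in replicate 6. WT replicate 1 sorted the members by GC content: those above the median of 50.5% had a median deviation of 0.20, the others -0.04, with rho 0.55 across members and 0.30 across tested genes. Mrps34, at 60.6% GC, was at 129 FPKM there against 77.4 and 69.3 FPKM in WT replicates 2 and 3. Mrps22, at 45.8%, was at 14.9 against 24.2 and 20.2 FPKM. These correlations run across genes, which share libraries and are not replicates. The part of level, length, GC content or cell makeup in the members' pattern was not otherwise tested.

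**Figure D5:**
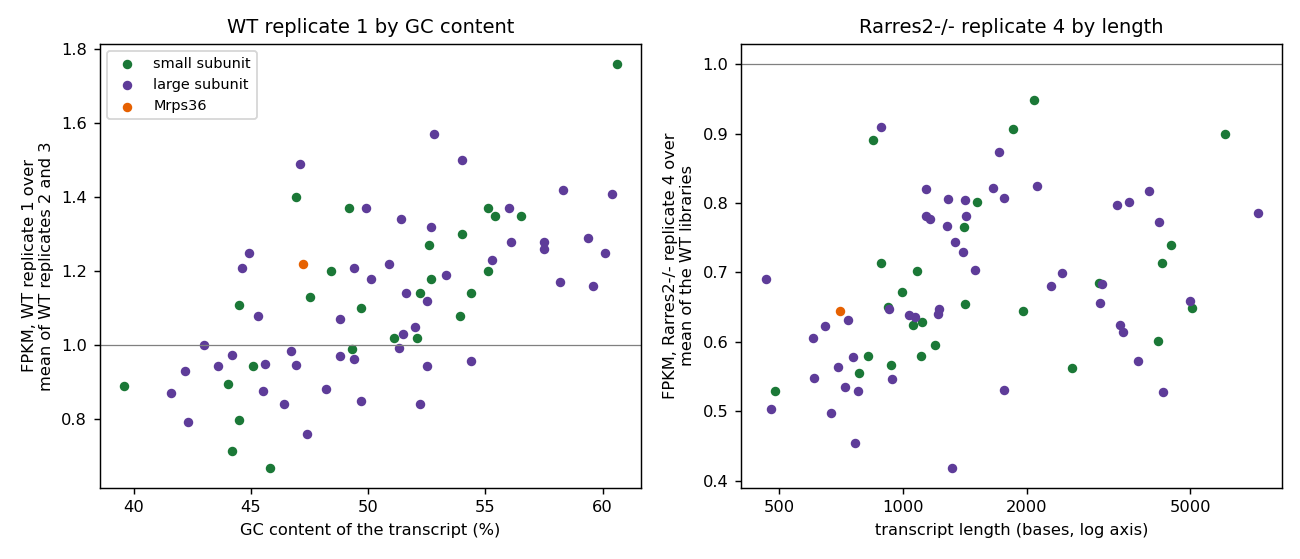
Left, FPKM in WT replicate 1 divided by the mean of WT replicates 2 and 3 against GC content, where Mrps34 (60.6% GC) is highest at 1.76 and Mrps22 (45.8%) lowest at 0.669. Right, FPKM in Rarres2-/- replicate 4 divided by the WT mean against transcript length on a log axis, where all 76 genes lie below 1, from 0.419 for Mrpl12 to 0.949 for Mrps2.

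In the genome many members start head to head with another gene, some of them overlapping it at the start. Within 1000 bases, a protein-coding gene on the opposite strand began head to head in 32 of 76 members (42.1%), against 16.2% of 10218 tested coding genes (GENCODE M21, GRCm38). Mrpl46 (chromosome 7, 78775236 to 78783531) and Mrps11 (78783119 to 78792989) are such a pair and both are members. Their exons overlap on opposite strands, so reads of that stretch may have been counted for either gene. Mrpl46 was at 27.4, 21.7 and 19.7 FPKM in WT against 17.9, 27.7 and 35.6 in Rarres2-/-, and Mrps11 at 24.3, 20.5 and 20.1 FPKM in WT against 13.5, 21.2 and 30.3 in Rarres2-/-. The pair had the same order in every library, from replicate 6 as highest to replicate 4 as lowest, except that Rarres2-/- replicate 5 lay above WT replicate 1 for Mrpl46 and below it for Mrps11. Mrps12 starts opposite Sars2, a mitochondrial synthetase gene at 6.12, 3.94 and 3.79 FPKM in WT against 3.70, 3.41 and 7.29 in Rarres2-/-. Exons of 23 members overlap those of another coding gene, so their values may include its reads.

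Promoters were searched for the motifs of factors linked to mitochondrial genes, as a description of sequence that the symbol rule did not use. RefSeq promoter windows (GRCm38.p6, 250 bases before to 50 after the start) were found for 67 of the 76, as 73 windows. NRF1's motif, searched as GCGC, any 2 letters and GCGC again, stood in 17.8% of the members' windows, 13.1% of those of tested genes and 6.23% of all 32851. The ETS motif of GABPA, CCGGAAGT on either strand, stood in 16.4%, 7.93% and 3.89%, and that of YY1 on either strand in 6.85%, 1.5% and 0.633%. NRF1's motif reads the same on both strands, and no motif contains another. Of the 67 genes, 28 held at least 1 of the 3 motifs and 39 held none. The 13 with NRF1's motif, the 12 with the ETS motif, the 5 with YY1's and the 39 with none had median deviations of -0.56, -0.63, -0.48 and -0.51 in Rarres2-/- replicate 4, so members without these letters were low there as well.

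The stretches shown are the 100 bases before the RefSeq start of 3 of the most abundant members with NRF1's motif, of Mrpl27 with the ETS motif, and of Mrps25, which varied least and holds none. Each is read 5′ to 3′ on the strand of the gene, with the motif in capitals. Mrpl12, Mrpl30 and Mrps21 have the same 10 letters at a similar distance, starting 81, 83 and 91 bases before the start. The stretches lie at chr11:120484537-120484636 (Mrpl12, plus strand), chr1:37890377-37890476 (Mrpl30, plus), chr3:95871515-95871614 (Mrps21, minus), chr11:94653691-94653790 (Mrpl27, plus) and chr6:92184024-92184123 (Mrps25, minus).
Mrpl12: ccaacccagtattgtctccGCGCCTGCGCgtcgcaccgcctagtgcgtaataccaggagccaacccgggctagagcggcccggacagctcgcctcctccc
Mrpl30: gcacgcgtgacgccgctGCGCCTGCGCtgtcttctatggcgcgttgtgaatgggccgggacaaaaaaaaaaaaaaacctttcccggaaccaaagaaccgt
Mrps21: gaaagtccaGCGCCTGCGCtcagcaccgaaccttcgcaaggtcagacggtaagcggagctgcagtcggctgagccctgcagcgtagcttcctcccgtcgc
Mrpl27: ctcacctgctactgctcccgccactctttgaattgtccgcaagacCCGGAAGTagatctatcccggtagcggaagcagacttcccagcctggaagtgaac
Mrps25: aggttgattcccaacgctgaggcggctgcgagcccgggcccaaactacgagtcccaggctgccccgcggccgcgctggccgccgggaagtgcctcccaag
Beside these letters, Mrpl12, Mrpl30 and Mrps21 stood at 0.419, 0.531 and 0.529 of the WT mean in Rarres2-/- replicate 4, Mrpl27 at 0.578 and Mrps25 at 0.90. The first 3 were the lowest of the 13 members with NRF1's motif, among which this ratio rose to 0.822 (Mrpl9). Over all members its median was 0.655. A link between the letters and these ratios was not tested. Mrpl20, which holds none of the 3 motifs in its window, stood at 0.454.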

How the data were processed

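The authors deposited FPKM values, as the headers of 5 of the 6 tables say. In the remaining table, that of WT replicate 3, the column carries the library's name, and its values were read as FPKM from their rows and scale. Bowtie and mm10 are named in the submitters' processing notes. The program behind FPKM, its annotation, strand, handling of shared reads and versions are not stated in the labels or headers. FPKM holds no counts, so absolute depth is unknown. From the spacing of the lowest values, WT replicate 1 had 0.530 of the depth of WT replicate 2, and the other libraries had 0.697 to 1.01 of it. Rows without a symbol (0.793% to 4.91% of the summed FPKM) were left out. In WT replicate 1 the small nucleolar RNA gene Snord2 held 1170000 of 1880000 summed FPKM.

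All 11086 named genes whose mean reached 1 FPKM were fitted on log2(FPKM + 1) with limma 3.58.1 in R 4.3.3 (trend, two-sided), genotype as the only term, with Benjamini-Hochberg adjustment over all genes at 0.05. That scale understates changes of low genes. Every adjusted p is limma's. Alternatives changed the scaling, pseudocount, filter, variance model or libraries, or removed length or GC trends. The script was tested on simulated data. The members, lists and alternatives were chosen with earlier results of these data known. Genes named are those with the smallest p in each direction, the most and least abundant, the most and least alike over the libraries, the S18 paralogues, members outside their named subunit, core proteins of the catalytic and decoding regions, up to 4 genes of each companion list, and markers. Genes named for their sequence features or links to promoter motifs (Mrps34, Mrps22, Mrpl46, Mrps11, their neighbours, Nrf1, Gabpa and Esrra) were picked after their values were seen. Lengths, GC content and positions came from GENCODE M21 on GRCm38, the assembly of mm10, for 99.4% of tested genes.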

Additional observations from a re-analysis of the deposited data

How the results depend on the processing

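The count of members past the threshold was 0 in 17 of 18 alternatives and 5 with array weights. The median log2 difference over members was -0.04 and ran from -0.23 to 0.26 with each library left out in turn. It was 0.31 without both WT replicate 1 and Rarres2-/- replicate 4. Among all tested genes, limma called 0 in the fit as designed. It called 1 with upper-quartile scaling, with scaling without the 20 most abundant genes, with 5 FPKM needed in 3 libraries, and with the length trend removed. Array weights gave 1524 and a members' median of 0.21, and leaving out both libraries gave 68. With 1 library left out the count ran from 0 to 1. Quantile normalization, a pseudocount of 0.1, no filter, no trend, robust empirical Bayes and removal of the GC trend (chosen after seeing the data) gave 0. With the length trend removed the members' median was 0.04, 51 of 76 being higher. The cause of these shifts was not tested. For 39 named members, 691 single values kept their side of the threshold and moved by less than the spread within genotypes, 5 passed it with array weights, and 5 moved further without both libraries. No paired analysis was possible because the genotypes share no replicate numbers. Without counts, the limit that depth sets cannot be given.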
